A study of Mus musculus with 5 samples.

Results

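The genes described here lie side by side on mouse chromosome 16, in a segment that runs from Yeats2 to Il1rap. They are 38 listed symbols, taken with all probe sets annotated to them. The list was chosen by position and by the difference between clone 42 and clones 1D and 20B on these same arrays, so that difference is described and supports nothing. Of the 38 listed genes, 25 could be followed between clones, out of 9435 measured genes and 18193 named genes in the series. In the RefSeq gene order Klhl24 lies just before Yeats2, and the other 37 lie between Yeats2 and Il1rap.

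Total RNA from 5 cloned lines of mouse cardiac progenitors (1D, 11B, 20B, 30 and 42) was hybridized to Affymetrix expression arrays, with 1 array for each. The cells came from left ventricles of adult mice aged 5 to 6 months, of a strain that the labels spell C67BL/6, and the labels name no transgene and no drug. They were selected with an antibody to Sca-1, expanded, cloned with rings and then subcloned by dilution, so each group is a single clone and stands for no larger class of cells. The cells are labelled c-kit+. Of the defining markers, Kit was measured on 1 probe set (ratios of 0.991 to 1.183). The trio of ratios in clones 1D, 11B and 30 was found there and on 1067 other probe sets, so detection of Kit cannot be read. Pou5f1, the gene of oct-4, was at the floor (0.572 to 0.580), and Ly6a, the gene of Sca-1, was not analysed here.

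Each deposited value is a ratio on a linear scale: the signal of a probe set over a divisor, which is the median of the 5 arrays for some probe sets and a higher floor for the dim ones. Such ratios carry differences between clones and no expression level, and log2 differences between clones do not depend on the divisor. With 1 array per clone no difference has a replicate check and no p-value was computed. A difference of at least 1.5-fold (0.585 log2 units) is used as a size to count by, and 2-fold as a stricter one. For the spread between probe sets, 6681 pairs for the same gene were compared. They gave a standard deviation of 0.32 log2 units for the difference of clone 42 measured on a single probe set. Error between arrays or cultures is not part of that value. In RNA from whole cultures, fewer cells of a type and less RNA per cell cannot be told apart.

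A segment groups genes by place and not by function. Most of the genes here serve tasks that every cell carries out. Parl encodes a rhomboid protease of the mitochondrial inner membrane, Ap2m1 the medium subunit of the adaptor that loads cargo into clathrin-coated pits, and Polr2h a subunit shared by all nuclear RNA polymerases. Eif2b5 and Eif4a2 encode the catalytic subunit of the exchange factor that recharges eIF2 and a helicase that unwinds messenger RNA for the ribosome. Others are restricted to particular tissues: Ahsg encodes a plasma protein of liver, Adipoq the fat cell hormone adiponectin, Sst the peptide hormone somatostatin, and Trp63 a transcription factor of squamous epithelia.

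Promoters of 3 members are shown to set genes whose clones differed beside a neighbour held at the floor. Each is the run of 250 bases before the gene's start in RefSeq, build GRCm38.p6, plus strand, at chr16:20535230-20535479 for Ap2m1, chr16:23107218-23107467 for Eif4a2 and chr16:23146286-23146535 for Adipoq. None of these runs overlaps a gene in the RefSeq table, and capitals mark CG dinucleotides.
Ap2m1: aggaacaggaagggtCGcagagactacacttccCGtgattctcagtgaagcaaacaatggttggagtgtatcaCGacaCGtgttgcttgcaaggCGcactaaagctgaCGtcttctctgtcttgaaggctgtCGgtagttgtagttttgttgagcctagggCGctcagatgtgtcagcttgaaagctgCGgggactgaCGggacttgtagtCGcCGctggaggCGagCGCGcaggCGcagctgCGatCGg
Eif4a2: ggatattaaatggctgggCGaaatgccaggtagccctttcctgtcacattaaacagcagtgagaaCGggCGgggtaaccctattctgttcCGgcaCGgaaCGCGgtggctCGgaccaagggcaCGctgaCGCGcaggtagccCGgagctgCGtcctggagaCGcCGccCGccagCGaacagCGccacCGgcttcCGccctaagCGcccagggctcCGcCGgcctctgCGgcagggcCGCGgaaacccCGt
Adipoq: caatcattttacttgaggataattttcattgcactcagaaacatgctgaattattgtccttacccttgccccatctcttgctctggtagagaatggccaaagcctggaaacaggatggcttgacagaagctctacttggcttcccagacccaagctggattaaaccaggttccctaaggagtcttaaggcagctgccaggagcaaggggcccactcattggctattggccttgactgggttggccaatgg
The Ap2m1 run holds 18 CG dinucleotides, that of Eif4a2 holds 27 and that of Adipoq holds 0.

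Across much of the segment clone 42 had the lowest ratios. Of the 25 measured members, 12 lay at least 1.5-fold below the mean of clones 1D and 20B in clone 42, where the background over all measured genes was 3.9%, and none lay 1.5-fold above it, where the background was 4.55%. At 2-fold 8 were lower (background 1.27%), and 24 were below 0 by any amount (background 52.8%). The median member lay at -0.58 log2 units, against -0.01 over all measured genes. Clone 42 was below both reference clones, by any amount, in 21 of the 25 (background 35.3%) and below all 4 other clones in 17 (background 22.2%). In 18, clones 30 and 42 were both below the other 3 by any amount (background 14.7%). Some of these margins were slight: in Eif2b5, Alg3 and Etv5 clone 30 was at 0.991 against 1.00 in clone 11B. Nothing is read from these shares, because this contrast chose the members and a member had to differ between clones to count as measured. Without the requirement of a difference between clones, 11 of 29 members were lower, against 2.96% of the 11296 genes counted in that way.

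**Figure D1:**
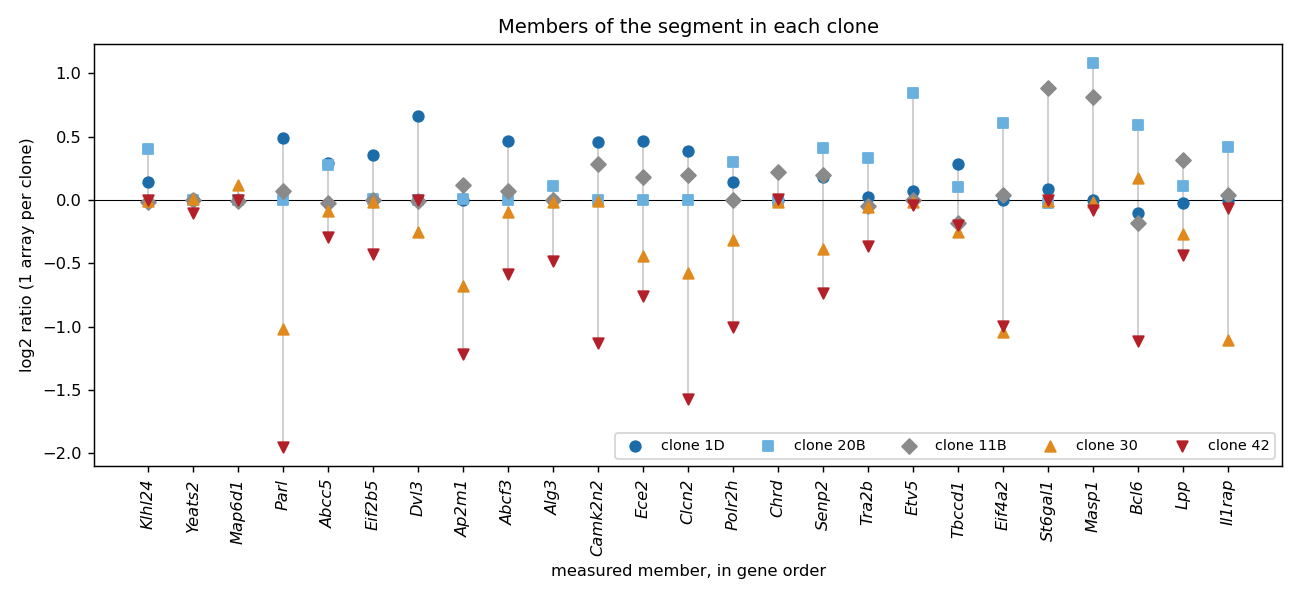
The log2 ratio of each of the 25 measured members (horizontal axis, in gene order) in each of the 5 clones; each point is 1 array and grey lines span the clones, with no error bars because each clone has 1 array. Clone 42 is the lowest point in each gene from Parl to Polr2h except Dvl3. Clone 30 is the next lowest in them, but in Eif2b5, Alg3 and Camk2n2 (0.991, 0.991 and 0.996) it is level with a clone at 1.00.

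The first 3 measured members were not counted as lower in clone 42. Klhl24, the gene of an adaptor of a ubiquitin ligase, lay at -0.27 log2 units in clone 42 relative to clones 1D and 20B, and its ratios on probe set 1436968_x_at were 1.218 in clone 1D, 0.976 in 11B, 1.535 in 20B and 1.00 in clones 30 and 42, a difference of -0.45 on that probe set. Yeats2, which encodes a subunit of the ATAC acetyltransferase complex, lay at -0.10. Map6d1, a gene of a microtubule-associated protein, lay at -0.00, where the ratios of clones 1D, 20B and 42 were shared with 27 further probe sets. The first member counted as lower in clone 42, in gene order, was Parl.

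Parl had the largest difference of all members. Its ratios were 1.402 in clone 1D, 1.05 in 11B, 1.00 in 20B, 0.494 in 30 and 0.259 in 42. Clone 42 lay 4.57-fold below the mean of clones 1D and 20B, and clone 30 lay between clone 42 and the others. The next gene, Abcc5, encodes an exporter of cyclic nucleotides and was just outside the 1.5-fold limit at -0.58 over 5 probe sets. Those probe sets ran from -1.39 on 1435683_a_at, where the ratios were 2.36 in clone 1D, 0.979 in 11B, 1.708 in 20B, 1.00 in 30 and 0.765 in 42, to -0.04 on 1427565_a_at. On the latter, the same trio of ratios in clones 11B, 20B and 42 was found on 63 further probe sets. Ratios that recur in this way mark a common level, at which closeness is no measurement.

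Eif2b5 was just inside the limit at 1.52-fold lower. Its ratios were 1.28 in clone 1D and 0.746 in clone 42, while clones 11B, 20B and 30 held 1.00, 1.005 and 0.991, a trio also found on 640 further probe sets, which leaves the size of the difference uncertain. Dvl3, one of the dishevelled proteins that carry Wnt signals, was high in clone 1D at 1.578, and clone 42 at 1.001 was tied with clones 11B and 20B. Clone 30, at 0.837, had the lowest Dvl3 ratio.

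Ap2m1 separated clones 30 and 42 from the rest. The ratios were 1.00 in clone 1D, 1.082 in 11B, 1.003 in 20B, 0.624 in 30 and 0.43 in 42, so clone 42 lay 2.33-fold below clones 1D and 20B. The reference clones were nearly equal here, and the separation rested on the low clones alone. Abcf3, an ATP-binding protein of the ABC family without a membrane part, lay 1.76-fold lower over 2 probe sets that disagreed. On 1426747_at the ratios were 1.409 in clone 1D, 1.108 in 11B, 1.00 in 20B, 0.885 in 30 and 0.448 in 42. On 1452177_at clone 42 lay at 0.997, a level it shared with clones 11B and 30, against 1.346 in clone 1D.

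Alg3, a mannosyltransferase of N-glycan assembly, was 1.45-fold lower in clone 42, at a ratio of 0.716 against 0.991 to 1.08 in the others. Clones 1D, 11B and 30 shared ratios with 1067 other probe sets, so only the position of clone 42 below them can be read. Camk2n2 encodes an inhibitor of the kinase CaMKII. It had ratios of 1.372 in clone 1D, 1.22 in 11B, 1.00 in 20B, 0.996 in 30 and 0.457 in 42, or 2.56-fold lower in clone 42. Unlike at Ap2m1, clone 30 stood with clone 20B.

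Ece2, a metalloprotease gene of the endothelin-converting family, had ratios of 1.383 in clone 1D, 1.134 in 11B, 1.00 in 20B, 0.735 in 30 and 0.591 in 42. The difference of clone 42 was 1.99-fold, and clones 30 and 42 were both below the other clones. Clcn2, the gene of a chloride channel, had the same order of clones at 1.306, 1.149, 1.00, 0.672 and 0.336 for clones 1D, 11B, 20B, 30 and 42. It was 3.40-fold lower in clone 42, the largest difference after Parl. Polr2h had ratios of 1.101 in clone 1D, 1.00 in 11B, 1.227 in 20B, 0.801 in 30 and 0.498 in 42, which put clone 42 2.33-fold lower.

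From Parl to Polr2h, a stretch marked off after its values were seen, 8 of 11 measured members were lower in clone 42 by 1.5-fold, with a median of -0.99 log2 units, against 3.9% and -0.01 over all measured genes. The next measured member, Chrd, encodes the BMP antagonist chordin. It lay at 0.01 in clone 42, the highest value among the members, but the ratios of clones 1D, 20B, 30 and 42 were shared with 13 further probe sets, and a lower level may not have been visible.

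From Chrd to Il1rap the members were more mixed, with 4 of 11 lower in clone 42 (background 3.9%) and a median of -0.50. Senp2, a protease that removes SUMO from proteins, lay 2.05-fold lower in clone 42, on probe sets that disagreed. On 1425465_a_at the ratios were 1.271 in clone 1D, 1.00 in 11B, 1.771 in 20B, 0.584 in 30 and 0.403 in 42, a difference of -1.90 log2 units, whereas on 1451717_s_at the difference was -0.17. Tra2b, a splicing factor gene, lay at -0.54 over 4 probe sets, from -1.23 on 1427432_a_at to -0.00 on 1444509_at, where clone 30 alone stood above the floor at 1.262. Etv5, an ETS transcription factor induced by receptor tyrosine kinase signals, lay at -0.50. That difference came from clone 20B at 1.792, since the other 4 clones lay between 0.972 and 1.049. Tbccd1, a gene of centrosome and Golgi positioning, lay at -0.39 on probe sets at -0.76 and -0.03.

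Eif4a2 was low in both clones 30 and 42. Its ratios were 1.00 in clone 1D, 1.025 in 11B, 1.522 in 20B, 0.485 in 30 and 0.502 in 42, which was 2.46-fold lower in clone 42, and here clone 30 was the lowest. St6gal1, a sialyltransferase gene, was high in clone 11B at 1.842 and lay between 0.983 and 1.059 elsewhere. Masp1, a protease of the lectin pathway of complement, had ratios of 1.00 in clone 1D, 1.76 in 11B, 2.112 in 20B, 0.989 in 30 and 0.946 in 42. Its 1.54-fold difference rested on clone 20B, since clones 1D, 30 and 42 were close together: relative to clone 1D alone it was -0.08 log2 units.

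Bcl6, a transcriptional repressor of cytokine and cell cycle genes, was low in clone 42 alone. On 1421818_at the ratios were 0.862 in clone 1D, 1.01 in 11B, 1.074 in 20B, 1.00 in 30 and 0.352 in 42. On 1450381_a_at they were 1.00, 0.768, 2.101, 1.271 and 0.605 in the same order. Its probe sets gave -1.45 and -1.26, so they agreed within the spread of 0.32, and the mean difference was 2.56-fold. Lpp, a LIM protein of focal adhesions, lay at -0.47. Its probe set 1440167_s_at separated the clones, with ratios of 1.00 in clone 1D, 1.648 in 11B, 1.013 in 20B, 0.582 in 30 and 0.41 in 42, while 1437235_x_at and 1454899_at lay at -0.11 and -0.02 with most clones tied. Il1rap, the gene of the co-receptor for interleukin-1, closed the segment at -0.27 in clone 42. Clone 30 was the low one there, with a ratio of 0.464 against 0.958 to 1.334 in the others.

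For the remaining listed genes no difference could be read. Magef1, Vps8, Liph, Ahsg, Adipoq, Sst, Trp63 and Cldn1 had 16 probe sets in all, each with a range of at most 0.04 log2 units over the clones. Adipoq held 0.481 to 0.485, and Sst 0.659 to 0.669. Values of this kind show neither a difference nor its absence. Eif4g1, Thpo, Map3k13, Igf2bp2 and Dgkg were not analysed here, because the annotation used paired no probe set with those symbols alone.

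The reference clones themselves differed along the segment. From Parl to Polr2h clone 20B lay below clone 1D, with a median of -0.39 log2 units over 11 members, and from Chrd to Il1rap it lay above, with a median of 0.31 over 11 members. At 1.5-fold 1 member, Dvl3, was lower in clone 20B than in 1D (background 3.53%), and 4 were higher, Masp1, Etv5, Bcl6 and Eif4a2 (background 3.29%). Relative to clone 1D alone 12 members were at least 1.5-fold lower in clone 42 (background 5.33%), and relative to clone 20B alone 13 were (background 5.59%). Masp1 left the count and Dvl3 (-0.66) entered it in the former. Eif2b5 and Abcf3 left it and Alg3 (-0.59), Tra2b (-0.70) and Etv5 (-0.88) entered it in the latter. Parl, Ap2m1, Camk2n2, Clcn2, Polr2h, Eif4a2 and Bcl6 were counted under each of 13 alternative settings. None of those took clone 30 alone as the reference, against which Ap2m1 (-0.54) and Eif4a2 (0.05) did not pass 1.5-fold.

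Clones 30 and 11B were not part of the contrast that chose the members. Against the mean of clones 1D and 20B, clone 30 was at least 1.5-fold lower in 8 of the 25 measured members (background 6.87%) and higher in 0 (background 5.33%), with a median of -0.37. Clone 11B was lower in 0 (background 4.37%) and higher in 1, St6gal1 (background 3.19%), with a median of -0.16. These share their reference clones with the difference of clone 42. The difference of clone 30 from clone 11B shares no array with it. It was chosen after the values were seen, and has no replicate.

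In clone 30 against clone 11B, 8 of the 25 measured members were at least 1.5-fold lower (background 6.8%) and 0 were higher (background 6.63%). The median was -0.25 log2 units, against -0.01 over all measured genes. Of the 12 members lower in clone 42, 6 were among the 8, which is 50% of the former and 75% of the latter: Parl at -1.09, Eif4a2 at -1.08, Masp1 at -0.83, Ap2m1 at -0.79, Clcn2 at -0.77 and Ece2 at -0.63. Over all measured genes, 88 were lower in both, 23.9% of the 368 lower in clone 42 and 13.7% of the 642 lower in clone 30 against 11B. Il1rap (-1.15) and St6gal1 (-0.89) were lower in clone 30 against 11B but not in clone 42 against 1D and 20B. Bcl6 went the other way, at 0.36. The differences of Masp1 and St6gal1 rested on a high clone 11B. Masp1 had ratios of 1.76 in clone 11B, 0.989 in 30 and 1.00 in 1D. St6gal1 had 1.842 in clone 11B, 0.994 in 30 and 1.059 in 1D.

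**Figure D2:**
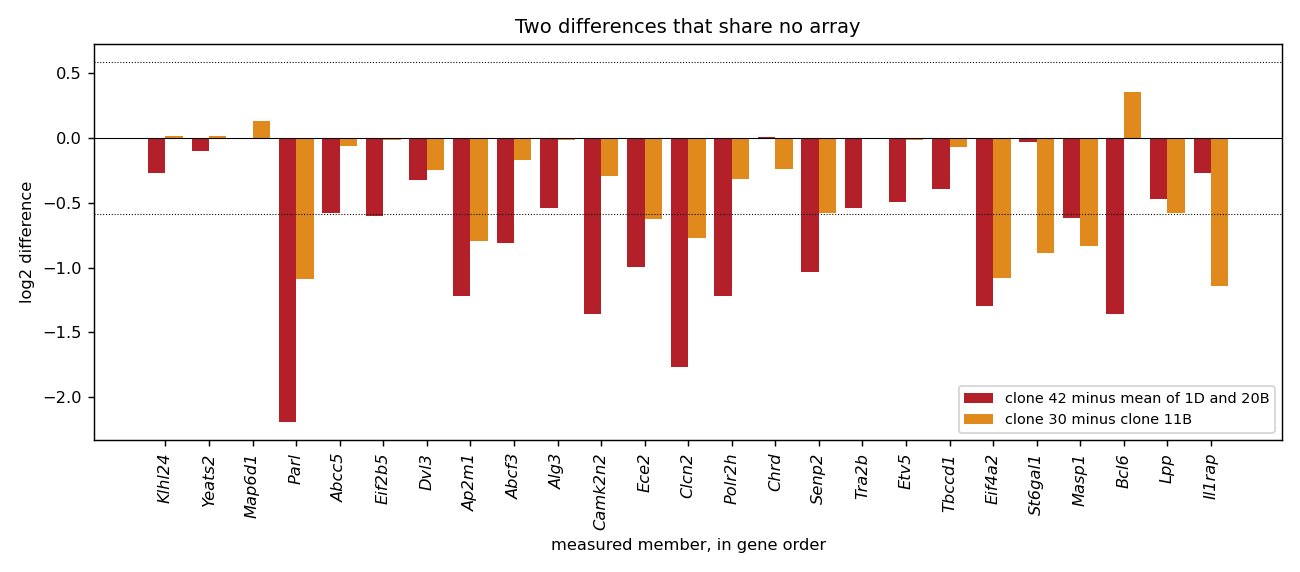
For each measured member (horizontal axis, gene order) the log2 difference of clone 42 from the mean of clones 1D and 20B (red) and of clone 30 from clone 11B (orange); each bar rests on single arrays, and dotted lines mark 1.5-fold. Both bars pass the line downwards for 6 members, from Parl to Masp1, and Bcl6 is low only in the former. At Masp1 and St6gal1 the orange bar reflects a high clone 11B.

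Clone 42 was also compared with clone 30 directly. It was at least 1.5-fold lower in 5 measured members (background 5.78%), and higher in 1, Il1rap (background 7.79%). The 5 were Bcl6 (-1.29), Camk2n2 (-1.12), Clcn2 (-1.0), Parl (-0.93) and Polr2h (-0.69). Eif4a2 differed between these clones by 0.05. Against clone 11B, clone 42 was lower in 13 (background 5.88%) and higher in 0 (background 7.4%).

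Another 9 measured genes lie between Yeats2 and Il1rap without being listed. In clone 42, 5 of them were at least 1.5-fold below clones 1D and 20B (background 3.9%). These were Dnajb11, a chaperone of the endoplasmic reticulum (-1.58), P3h2, a collagen prolyl hydroxylase (-1.40), Rfc4, a subunit of the clamp loader of DNA replication (-1.28), Psmd2, a subunit of the regulatory particle of the proteasome (-1.23), and the receptor tyrosine kinase gene Ephb3 (-0.69). The other 4, 2510009E07Rik, Fetub, Rtp4 and Lppos, lay between -0.55 and -0.02. In clone 30 against clone 11B, Rfc4 (-1.53), Dnajb11 (-1.35), Psmd2 (-1.34) and 2510009E07Rik (-1.14) were lower (background 6.8%). Dnajb11 lies before and Rfc4 after Eif4a2 in gene order. In all 3, clone 30 was the lowest, and clone 42 lay above it by 0.03 log2 units in Dnajb11, 0.05 in Eif4a2 and 0.17 in Rfc4.

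The edges of the segment were then examined in gene order. Among the 20 measured genes before it 1 was at least 1.5-fold lower in clone 42 (background 3.9%) and the median was -0.10, and among the 20 after it 1 was lower and the median was -0.00. The 5 nearest genes before it, Cdc45, Ufd1, Mrpl40, Hira and Klhl6, lay between -0.38 and 0.13 in clone 42. In clone 30 Ufd1 (-1.31), Hira (-1.26) and Cdc45 (-1.23) were lower relative to clones 1D and 20B, while Mrpl40 lay at -0.44 and Klhl6 at -0.09. Whether these low genes ran on into the segment cannot be read from its first members. There clone 30 lay at -0.28 in Klhl24, 0.01 in Yeats2 and 0.12 in Map6d1. Recurring ratios were held by Map6d1, in clones 1D, 20B and 42, and by Klhl24 probe set 1428651_at. On 1436968_x_at, the other measured probe set of Klhl24, clone 30 was at 1.00 against 1.218 in clone 1D and 1.535 in 20B. Hira, a histone chaperone gene, was also low in clone 11B at a ratio of 0.556, against 0.50 in clone 30. After the segment, Gm20319, Ccdc50 and Fgf12 lay between -0.21 and -0.02 in clone 42, but Fgf12, a gene of an intracellular fibroblast growth factor homolog, was low in clone 30 at a ratio of 0.448 (-1.36). Genes outside the segment were not searched for recurring ratios. Ccdc50 held the trio of Eif2b5 in clones 11B, 20B and 30, and Klhl6 held the tied ratios of Dvl3 in clones 11B, 20B and 42. Values near 0 at such levels do not place an edge. Opa1, the gene of a dynamin of the mitochondrial inner membrane, was low in both clones, with ratios of 1.42 in clone 1D, 1.00 in clones 11B and 20B, 0.324 in 30 and 0.419 in 42. Its neighbour Hes1, a target of Notch signals, was 2.02-fold higher in clone 42 and lowest in clone 11B.

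**Figure D3:**
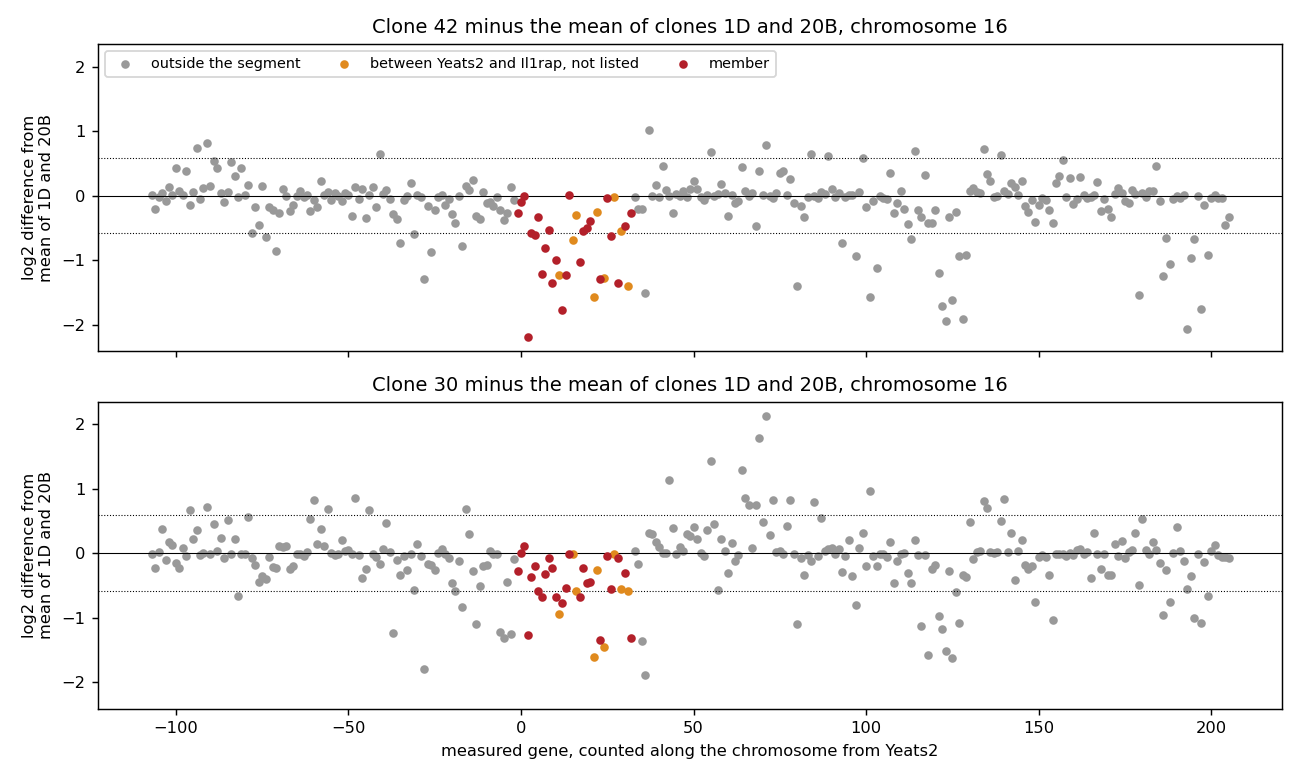
Log2 difference of clone 42 (top) and clone 30 (bottom) from the mean of clones 1D and 20B for the 313 measured genes of chromosome 16 in gene order (horizontal axis, counted in measured genes from Yeats2); each point is 1 gene, red for members and orange for unlisted genes of the segment, and dotted lines mark 1.5-fold. Of the 25 measured members 24 lie below 0 in the top panel and 23 in the bottom panel, and further runs of low genes lie outside the segment.

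Outside the segment 30 of 279 measured genes of chromosome 16 (10.8%) were at least 1.5-fold lower in clone 42, with a median of -0.02, and 11 (3.94%) were higher. The median over all 34 measured genes of the segment, members and others, was -0.59, with 17 lower and 0 higher (background 3.9% and 4.55%). In blocks of 20 measured genes over the rest of the chromosome, the lowest median in clone 42 was -0.38.

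Several members work in complexes or families whose other genes lie outside the segment, and lists of those were compared. Some of these, such as Abcc1, lie on chromosome 16. Of 51 measured partner genes 3 (5.88%) were at least 1.5-fold lower in clone 42 and 4 (7.84%) were higher, with a median of 0.00. The shares over all measured genes were 3.9% and 4.55%. Of 10 measured initiation factor partners of Eif2b5 and Eif4a2, none passed 1.5-fold: Eif2b4 lay at 0.54 and Pabpc1 at -0.50. The 4 partners of Ap2m1 in the AP-2 adaptor lay above 0, with Ap2b1 at 0.73 and Ap2a2 at 0.68. Of 8 measured RNA polymerase partners of Polr2h, 0 were lower and 1, Polr2a, was higher at 0.61, while Polr2b lay at -0.51.

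Elsewhere the partners were divided. Dvl1 lay at -1.06 and Axin1 at 0.39 among 4 measured Wnt partners of Dvl3. Of 6 measured SUMO proteases Senp7 was lower at -1.19, and it also lies on chromosome 16, as does Senp5 at -0.01; Senp8 lay at -0.20. For Vps8, whose own probe sets were flat or at the floor, the list held genes of the HOPS and CORVET complexes. Not all of these share a complex with Vps8. Among the 7 measured, Vps41 lay at 0.83 and Vps11 at -0.62. The ABC proteins Abcf1 (0.42) and Abcc1 (-0.32), the LIM proteins Zyx (0.36) and Trip6 (0.18), the RNA-binding paralogs Tra2a (0.43) and Igf2bp3 (-0.24), the claudins Cldn12 (-0.01) and Cldn3 (0.00), Etv4 (0.09) and Bcor (0.07) did not pass 1.5-fold.

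**Figure D4:**
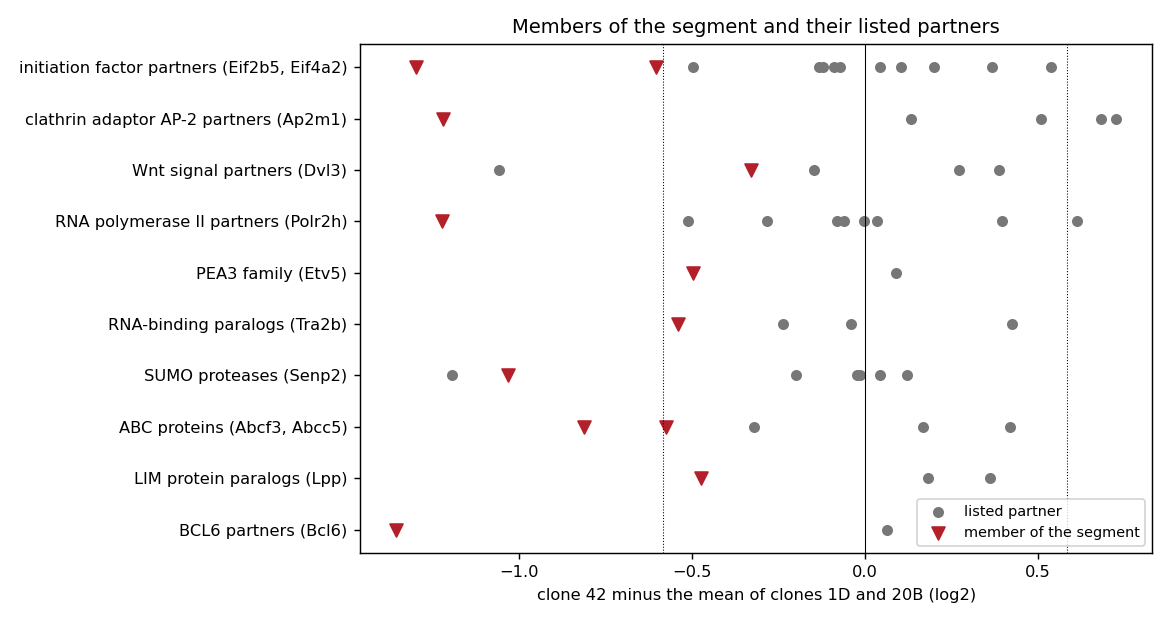
Log2 difference of clone 42 from the mean of clones 1D and 20B (horizontal axis) for members of the segment (red triangles, named in brackets) and the listed partner genes (grey points), with 1 row per list; each point is 1 gene and dotted lines mark 1.5-fold. Ap2m1 lies at -1.22 while its 4 partners lie above 0, and Polr2h lies below all 8 measured polymerase partners.

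Genes known to respond to factors in the segment were also listed. Of 5 measured ERK and ETS response genes, Spry4 was lower in clone 42 at -0.96 and the median was 0.05. Of 2 measured genes that BCL6 represses, Cdkn1a lay at 0.56 and Ccnd2 at 0.06. Of 4 measured interleukin-1 response genes, Ccl2 was lower at -1.86 and Nfkbia lay at 0.50. Among cell type markers 0 of the 4 endothelial and 0 of the 3 blood genes were measured. Of the 5 fibroblast markers 3 were measured and were divided in clone 42, with Col1a1 at -2.17, Ddr2 at 0.31 and Pdgfra at 1.29. The 3 measured smooth muscle, 3 cardiomyocyte and 2 mesothelial markers lay between -0.05 and 0.55 in clone 42. Myh11 and Actc1 held ratios near 1.00 in most clones, a level at which closeness may be no measurement. In clone 30, against the same reference clones, Tagln lay at 1.93, Upk3b at 1.22 and Msln at 0.81. The other markers of these types lay between -0.01 and 0.23 there. Ratios do not allow a summed level of a list.

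Array controls were read in the same difference of clone 42 from clones 1D and 20B. The 18 hybridization control probe sets lay between -0.20 and 0.00 log2 units (median -0.09), and the 27 poly-A spike probe sets between -0.85 and 0.14 (median -0.23). The 3 probe sets of 18S RNA lay between -1.12 and -0.22. The ratio of 5' to 3' signal of Actb, relative to clone 20B, was 1.08 in clones 1D and 42, 0.743 in clone 30 and 0.597 in clone 11B. That of Gapdh spread less, at 1.12 in clone 1D, 1.05 in 42, 0.966 in 30 and 0.893 in 11B. Centring every array on its median left the members' differences unchanged, with 12 of the 25 measured members lower. It is therefore no check on the scaling of the arrays. The part of the marker genes, spikes and 18S RNA in the members' difference was not tested.

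The choice of members did not use promoter composition, but a member had to pass a filter on its ratios to count as measured. The background below is over all promoters of the table, of genes measured or not, with alternative promoters kept. Each member is represented by its most upstream promoter. The shares are therefore not like for like, and nothing is read from them. RefSeq runs were found for 33 of the 38 listed genes. In 9 of the 11 found for members lower in clone 42, and in 9 of the 11 for other measured members, the CG count was over 0.6 of that expected from base composition, against 34% of 32851 promoters of the same length in the table. Of 6 found for members at the floor or flat, 2 passed. The runs of Ap2m1 and Eif4a2 shown above had 0.974 and 0.98, and that of Adipoq had 0. A GC box (GGGCGG, either strand) was present in 8 of the 11 promoters of lower members and in 6 of the 11 of other measured members, against 32.7% of all. The TATA motif TATAAA, on either strand, was present in 0 of 33, against 12.4% of all.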

How the data were processed

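Total RNA of 5 clones was measured on 1 array each. Per the submitters' processing notes RMA and GCRMA were used, without versions or roles. The deposited values are ratios on a linear scale, read from the values, since no label states the unit: over the arrays the median was exactly 1 for 18926 of 45101 probe sets and below 1 for 26175. Members and lists were chosen with earlier results of these data known.

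Probe sets with 1 gene symbol (34945) were named from the supplied platform annotation; 64 controls were left out. Probe sets were kept as measured when the median was 1 or some clone exceeded 1, with a range over 0.05 log2 units, and averaged per gene on the log2 scale. Ratios of 3 or more clones found on at least 10 other probe sets were called recurring. Gene order came from the RefSeq table of GRCm38.p6. All listed members were accounted for. Named besides were the 5 nearest measured genes on each side, up to 2 genes with the largest absolute difference in each partner list, and, after their values were seen, the unlisted genes of the segment and the response and marker genes. No test was possible with 1 array per clone, so samples could not be paired or modelled. Python 3.11.15 with numpy 2.4.6 and pandas 2.3.3 was used, tested on simulated data. The number of arrays limits the precision. Alternatives covered probe set choice, scaling, reference clone and fold.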

Additional observations from a re-analysis of the deposited data

How the results depend on the processing

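The median of the measured members in clone 42 relative to clones 1D and 20B stayed below 0 under every alternative tried, from -0.66 with clone 11B as reference to -0.39 with every probe set averaged, and it was -1.01 without the member probe sets that hold recurring ratios, where 14 of 20 measured members were lower. The background there was 3.92% of 9430 genes, but recurring ratios were removed from members only. Many of the removed values lay near 0, and taking them out moves a median away from 0. These shares are therefore not like for like, and nothing is read from that setting. Clone 11B as reference and the removal of recurring ratios were chosen after seeing the data. The count of members at least 1.5-fold lower was 12, and lay between 10 and 14 except with every probe set averaged, where 7 were lower (Eif2b5, Abcf3, Ece2, Senp2 and Masp1 were lost), at 2-fold (8), and by sign alone, where 24 were lower and 1 was higher. Averaging every probe set brings in flat ones, which pull a mean towards 0. No called difference changed sign under these alternatives. Clone 30 alone was not among the references. Relative to clone 30, 5 of the 25 measured members were lower in clone 42 (background 5.78%). The median was -0.20 log2 units, and the called member Eif4a2 lay at 0.05. Array signal over background cannot be read from these ratios. No paired analysis was possible because each clone has 1 array.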

Other observations

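Low genes in clone 42 also lay in other runs of chromosome 16, divided by position into blocks of 20 measured genes. In the block from Bbx to Pros1, 8 of 20 genes were at least 1.5-fold below clones 1D and 20B in clone 42 (median -0.38) and 8 in clone 30 (median -0.36), against 1 in clone 11B. The shares over all measured genes were 3.9% in clone 42, 6.87% in clone 30 and 4.37% in clone 11B. Tomm70a, a receptor for import into mitochondria, lay at -1.95 in clone 42, Col8a1, a short-chain collagen, at -1.92, Tfg at -1.71 and Senp7 at -1.19. At the end of the chromosome, in the 13 genes from Pigp to Zbtb21, 5 were lower in clone 42 (median -0.33, background 3.9%) and 3 in clone 30 (background 6.87%). Pigp, of GPI anchor synthesis, lay at -2.06, Psmg1, a proteasome assembly chaperone, at -1.76 and Hmgn1, a nucleosome-binding protein, at -0.92. These genes were named after their values were seen.

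Clone 30 also held a run in the opposite direction. In the 20 genes from Wdr53 to Adcy5, which lie beyond the segment, 7 were at least 1.5-fold higher in clone 30 (median 0.32) and 0 were lower, whereas clone 42 had 2 higher and 0 lower (median 0.02). The shares higher over all measured genes were 5.33% in clone 30 and 4.55% in clone 42. Hacd2, an enzyme of fatty acid elongation, lay at 2.13 and Umps, of pyrimidine synthesis, at 1.78 in clone 30. All of these runs were picked from the blocks after their values were seen. No test of these runs was made, and blocks were cut at fixed counts, so their edges carry no meaning.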
